A study of Mus musculus with 6 samples.

Results

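The HCN channels are the pore proteins of the hyperpolarization-activated current, and 3 genes of this family, Hcn2, Hcn3 and Hcn4, were followed in adult mouse hippocampus after ethanol exposure in the first postnatal week. The genes were chosen by symbol as the family members paired with a probe set of their own, and they are 3 of 19938 genes with a probe set named for 1 gene. Each has 1 probe set on the Affymetrix Mouse Gene 1.0 ST array. Ethanol mice were C57Bl/6J males injected under the skin with ethanol at 2.5 g/kg in 0.15 M NaCl, as 2 injections a day at postnatal days 4 and 7. Saline mice were males of the same strain, matched by litter and weight, that received saline on the same schedule. Both groups were killed at day 70 without further treatment. Whole hippocampus was collected, and RNA of 3 non-littermate mice was pooled for each array, so that 3 ethanol pools and 3 saline pools stand for 9 mice each. A pool hides the spread between its animals, and the tests below rest on the spread between pools.

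HCN channels open when a neuron becomes more negative and let sodium and potassium ions through, which brings the membrane back towards the firing threshold. Cyclic AMP binds directly to a domain in the tail of the channel and eases its opening in HCN2 and HCN4, whereas HCN3 responds little to it. In hippocampal pyramidal neurons the current limits how far synaptic signals spread and summate in the dendrites. Hcn4 is best known as the main pacemaker channel of the sinoatrial node of the heart, and in brain it is abundant in the thalamus, where it works with Hcn2 in rhythmic firing. Hcn3 is the least studied member and is weakly expressed in most of the brain.

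On the arrays, the deposited values are log2 expression after RMA, a procedure that removes background, brings the arrays to a common distribution and merges a set's probes into 1 value. The 6 arrays had medians of 5.84 to 5.89 and correlated with each other at 0.9971 to 0.9979 over all probe sets (these are not independent of each other). Levels of different probe sets depend on their probes and are not set against each other here. As a mark of dim signal, 5.37 is the value below which 95% of 1190 olfactory and vomeronasal receptor genes lie, genes that are known from the nose. With limma over 23410 probe sets with a gene symbol, 0 passed an adjusted p under 0.05 (Benjamini-Hochberg, lowest adjusted p = 0.931), while 1202 (5.13%) passed the unadjusted threshold of 0.05. In the methods' t-test 1004 of the 19938 genes (5.04%) passed it. Of the markers of hippocampal pyramidal and granule neurons, 0 of 15 lay below 5.37.

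Of the 3 genes, only Hcn4 passed the unadjusted threshold, as higher after ethanol, and none passed after adjustment over all probe sets. Among all genes 2.8% passed the unadjusted threshold as higher and 2.41% as lower, 5.22% in all. The study lists Hcn4 among its changed genes on these same arrays, so its call is no independent evidence of a direction.

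**Figure D1:**
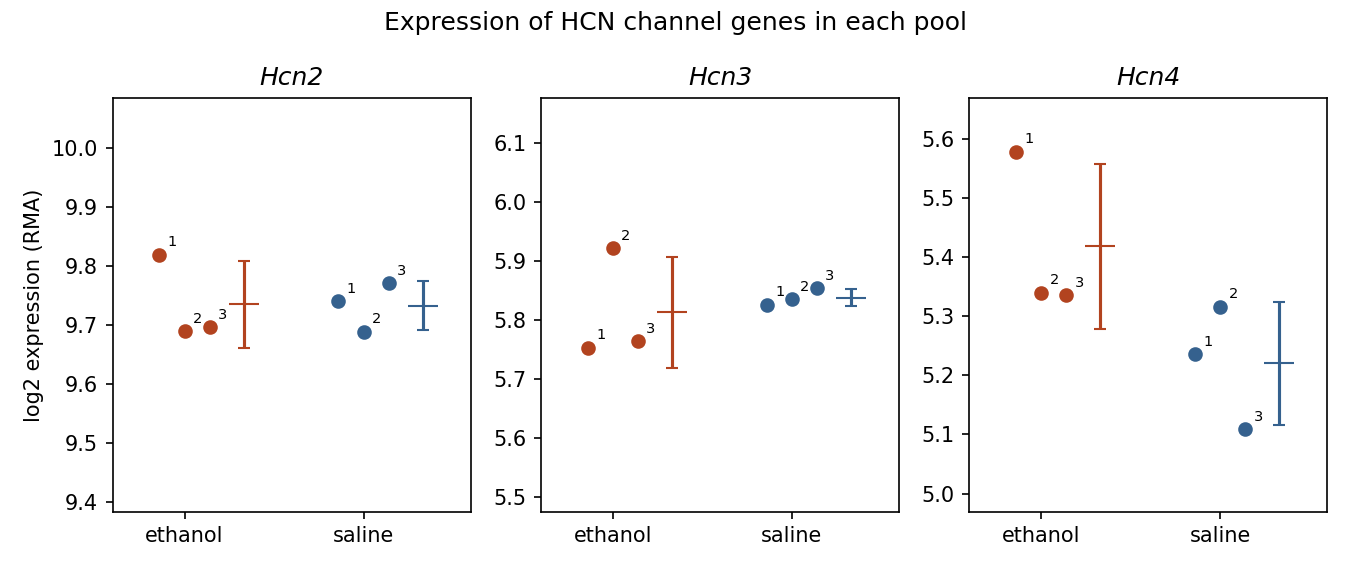
Log2 expression (RMA) of Hcn2, Hcn3 and Hcn4 in each pool, with ethanol left of saline, points numbered by pool, and the bar giving the group mean ± SD (n = 3). All panels span the same log2 range. The ethanol and saline points of Hcn4 do not overlap, and ethanol pool 1 is its highest point at 5.578.

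Hcn2 (mouse chromosome 10, 79716634 to 79736108 in GRCm38.p6) encodes a channel found throughout the brain, including hippocampal pyramidal cells. The pool values were 9.819, 9.69 and 9.696 in ethanol pools 1, 2 and 3, against 9.74, 9.689 and 9.771 in saline pools 1, 2 and 3. Ethanol pool 1 was the highest of the 6, the other ethanol pools sat near the lowest saline pool, and the groups overlapped. The means were 9.735 ± 0.073 in ethanol pools and 9.733 ± 0.041 in saline pools (SD, n = 3 each). The log2 change was 0.002 ± 0.049 (SE), and its 95% confidence bounds were 0.927 and 1.08 times saline (limma, unadjusted p = 0.974, adjusted p = 0.999). Of all genes, 2.6% had a smaller absolute change. The sign of so small a value turned with the processing, and with each pool left out the change ran from -0.04 to 0.024.

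Hcn3 (chromosome 3, 89146775 to 89160284) encodes the member that is largely insensitive to cyclic AMP. The pool values were 5.753, 5.921 and 5.764 in ethanol pools 1, 2 and 3, against 5.826, 5.835 and 5.854 in saline pools 1, 2 and 3. The ethanol pools lay on both sides of the saline pools, with pool 2 above all of them and pools 1 and 3 below. The means were 5.813 ± 0.094 in ethanol pools and 5.838 ± 0.015 in saline pools (SD, n = 3 each), and the log2 change was -0.026 ± 0.052 (SE). Its 95% confidence bounds were 0.905 and 1.07 times saline (limma, unadjusted p = 0.634, adjusted p = 0.976). The range between ethanol pools was 0.167 and that between saline pools 0.029 on the log2 scale, a ratio of 5.82. The spread between saline pools was small for this array, with 6.48% of genes having a smaller SD, and that between ethanol pools was among the larger ones, with 80.9% of genes having a smaller SD. This difference in spread was not tested, since 3 values a group say little about a variance. Without ethanol pool 2 the change was -0.08 ± 0.044, and without ethanol pool 1 it was 0.004 ± 0.057, neither past the unadjusted threshold.

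Hcn4 (chromosome 9, 58822949 to 58863175) encodes the slowly opening, cyclic AMP-sensitive pacemaker channel. The pool values were 5.578, 5.34 and 5.335 in ethanol pools 1, 2 and 3, against 5.236, 5.316 and 5.109 in saline pools 1, 2 and 3. The lowest ethanol pool exceeded the highest saline pool by 0.018 on the log2 scale, so the groups did not overlap, but ethanol pools 2 and 3 lay much nearer to saline pool 2 than to ethanol pool 1. The means were 5.418 ± 0.139 in ethanol pools and 5.22 ± 0.104 in saline pools (SD, n = 3 each). Ethanol pools that lie wholly above saline pools were found for 5.35% of all genes and for 8.01% of the 7505 genes below 5.37. The mean of Hcn4 over all pools was 5.319, so it belongs to these dim genes, of which 4.22% passed the unadjusted threshold as higher.

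The log2 change of Hcn4 was 0.197 ± 0.078 (SE), or 1.147-fold, with 95% confidence bounds of 1.01 and 1.3 times saline (limma, unadjusted p = 0.0329, adjusted p = 0.931). This absolute change is larger than that of 98.7% of genes, and it ranked 179 of 19938 from the most positive. The spread of Hcn4 between pools was large as well, with 93.9% of genes having a smaller SD between ethanol pools and 86.4% between saline pools. The methods' t-test was recomputed here on the deposited values, and in it the gene's own spread is not drawn towards that of other genes. In this recomputed test Hcn4 did not pass the unadjusted threshold (adjusted p = 0.953). Without ethanol pool 1 the change was 0.117 ± 0.065, and without saline pool 3, the lowest pool, it was 0.142 ± 0.081. Neither passed, nor did the change of 0.205 ± 0.092 without saline pool 1. With any other pool left out it passed, at 0.236, 0.239 and 0.245 without ethanol pool 2, ethanol pool 3 and saline pool 2. Every ethanol pool lay above every saline pool, so the direction could not turn in any of these 6 fits. After adjustment, 0 of them passed.

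**Figure D2:**
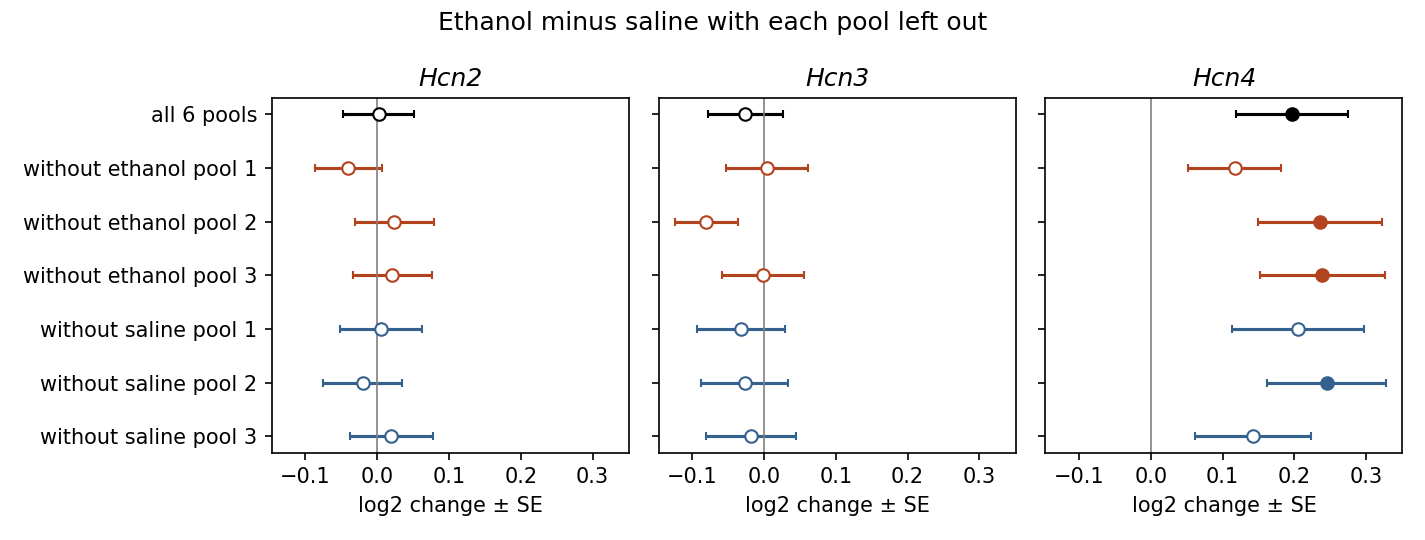
Log2 change of Hcn2, Hcn3 and Hcn4 (ethanol minus saline, ± SE, horizontal axis) with all 6 pools in black and with each pool left out, colored by the group it came from. Filled symbols passed an unadjusted p under 0.05 in limma. With a pool left out Hcn4 lay between 0.117 and 0.245, where its sign could not turn because its groups do not overlap. It passed with all pools and in 3 of 6 fits with a pool left out.

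Whether the genes changed unequally was tested on their differences within each array, for 3 pairs of genes. The change of Hcn4 exceeded that of Hcn2 by 0.196, and the ethanol and saline pools did not overlap in this difference (two-sided exact permutation test, p = 0.1, which is the smallest p that 3 pools against 3 allow). The change of Hcn4 exceeded that of Hcn3 by 0.223 (exact permutation test, p = 0.2), and here saline pool 2 lay above ethanol pool 2. The change of Hcn3 was 0.027 below that of Hcn2 (exact permutation test, p = 0.7). After adjustment over the 3 pairs the values were p = 0.3, 0.3 and 0.7 in the same exact permutation test, and a test of this size could not have passed 0.05, so it does not settle whether the family members changed unequally.

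The hippocampus lies above the thalamus and next to the choroid plexus, and markers of both differed between the pools. Relative to the saline mean, 16 thalamus markers averaged 0.708, 0.275 and 0.101 in ethanol pools 1, 2 and 3, against 0.013, 0.002 and -0.016 in saline pools 1, 2 and 3. On the same scale Hcn4 stood at 0.357, 0.12 and 0.114 in the ethanol pools, against 0.015, 0.096 and -0.111 in the saline pools. Ethanol pool 1 was thus the highest pool for both. The marker mean differed between ethanol pools 2 and 3, where Hcn4 had nearly the same value, and it was nearly level over the saline pools, where Hcn4 had a range of 0.207. Single markers did vary between saline pools, but not in a common order. Prkcd, at 8.29, 8.536 and 8.29 in saline pools 1, 2 and 3, was highest in pool 2, as was Hcn4. Zic1, at 7.786, 8.197 and 7.843, was also highest there, as were Ptpn3, Synpo2 and Zic4. Rgs16, at 7.786, 7.501 and 7.639 in the same pools, was lowest in pool 2, as were Rora, Lef1, Ntng1 and Tnnt1. The other markers of the list had pool 2 in between. Of the 16 markers, 10 were higher past the unadjusted threshold, against 2.8% of all genes, and 0 were lower, against 2.41%. The list was chosen with earlier results of these data known. The study lists Tcf7l2 and Synpo2 among its changed genes on these arrays, so the count is no independent evidence. The median log2 change over the list was 0.349, against 0 over all genes. The largest changes were those of Ramp3, Synpo2, Prkcd and Tcf7l2, at 0.76, 0.72, 0.67 and 0.59, of which Tcf7l2 also passed in the methods' t-test. Without ethanol pool 1 they were at 0.412, 0.405, 0.365 and 0.396, and with the choroid plexus marker mean as a covariate Ramp3 (0.563) and Prkcd (0.471) did not pass. Of the 16 markers, 4 lay below 5.37. When this marker mean was added to the fit as a covariate, the Hcn4 change was 0.039 ± 0.083 and did not pass (limma, adjusted p = 0.942). Hcn2 and Hcn3 were at -0.077 ± 0.061 and 0.007 ± 0.076 in that fit. The covariate was higher in every ethanol pool than in any saline pool, so the fit cannot tell ethanol and thalamic RNA apart, and the part of thalamic tissue in the Hcn4 difference was not tested. In bulk tissue, a different share of cells of a type and a different amount of RNA per cell cannot be told apart.

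**Figure D3:**
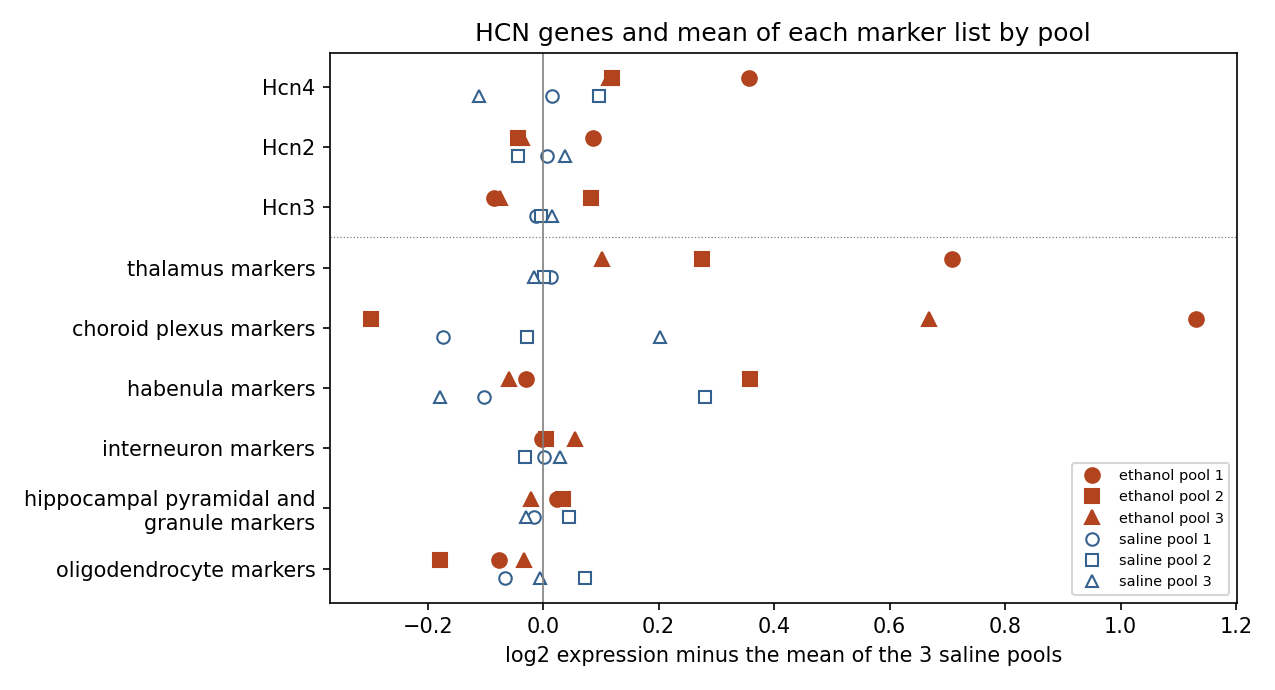
Hcn4, Hcn2, Hcn3 and the averages of 6 marker lists, plotted by pool as log2 distance from the saline average (horizontal axis), with filled symbols for ethanol, open symbols for saline and the shape giving the pool number. Ethanol pool 1 is highest for Hcn4 (0.357), for the thalamus markers (0.708) and for the choroid plexus markers (1.13).

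Choroid plexus markers were highest in ethanol pool 1, as were Hcn2 and Hcn4, and lowest in ethanol pool 2. The mean of 13 of them lay at 1.13, -0.298 and 0.669 in ethanol pools 1, 2 and 3 and from -0.173 to 0.202 in saline pools. Of these markers 2 passed as higher (Kl and Steap1, named for their calls, at 0.52 and 0.50), against 2.8% of all genes. As lower, 0 passed, against 2.41%. The largest changes were those of Tmem72, Slc4a5, Cldn2 and F5, at 0.67, 0.66, 0.61 and 0.59. The median change of these markers was 0.517, and 0 of them lay below 5.37. With their mean as a covariate Hcn4 was at 0.144 ± 0.086 and did not pass (limma, adjusted p = 0.879). Habenula markers, a list whose largest changes were those of Chrna3, Chrnb4, Tac2 and Chrnb3, at 0.33, 0.23, 0.21 and 0.19, were high in pool 2 of both groups, at 0.358 in ethanol pools and 0.281 in saline pools, while the other 4 pools lay from -0.178 to -0.029. Hcn3 was also highest in ethanol pool 2 but not raised in saline pool 2. In ethanol pools 1, 2 and 3 Hcn3 stood at -0.085, 0.082 and -0.074, the reverse of the order of the choroid plexus markers. Over the saline pools Hcn3 and the choroid plexus markers ran in the same order. Of 12 habenula markers 0 passed, against 5.22% of all genes, with a median change of 0.07 and 6 below 5.37. The part of choroid plexus and habenula in the values of the HCN genes was not tested.

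List means of hippocampal neurons and interneurons differed less between pools than those of the thalamus, choroid plexus and habenula lists, although single markers varied more. The mean of 15 markers of hippocampal pyramidal and granule neurons lay from -0.022 to 0.034 in ethanol pools and from -0.029 to 0.045 in saline pools. Of these markers 0 passed, against 5.22% of all genes, with a median change of -0.003. The largest changes in this list were those of Amigo2, Spink8, Pcp4 and Zbtb20, at 0.13, 0.10, 0.09 and -0.06. Among its single genes, the granule cell factor Prox1, named after its values were seen, lay at 9.963, 9.927 and 9.567 in ethanol pools 1, 2 and 3, against 9.869, 9.798 and 9.859 in saline pools 1, 2 and 3. The mean of interneuron markers lay from -0.002 to 0.055 in ethanol pools and from -0.031 to 0.029 in saline pools. Of these 0 of 10 passed the threshold, against 5.22% of all genes, with a median change of 0.021. Their largest changes were those of Sst, Cck, Slc32a1 and Gad2, at 0.10, 0.06, 0.05 and -0.05. Of 9 oligodendrocyte markers 3 passed as lower (Opalin, Mal and Cldn11, at -0.21, -0.155 and -0.12), against 2.41% of all genes, and Mag was at -0.12 without passing. The median change of the list was -0.092. Their mean was at -0.077, -0.179 and -0.034 in ethanol pools 1, 2 and 3, which is not the order of the pools in Hcn2, Hcn3 or Hcn4.

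Next come the transcripts of proteins that bind HCN channels or set their place in the cell. Of 10 measured partner genes 1 passed the unadjusted threshold, as higher, against 5.22% of all genes in either direction, and the median log2 change was 0.008. The gene was Kcne2, which encodes a small membrane protein that can join HCN and potassium channels and is made in quantity by the choroid plexus. Kcne2 lay at 7.38, 6.491 and 7.063 in ethanol pools 1, 2 and 3 and at 6.471, 6.442 and 6.672 in saline pools 1, 2 and 3. Ethanol pool 2 lay below saline pool 3, so the groups overlapped, and the order of the ethanol pools was that of the choroid plexus markers. Its change was 0.45 ± 0.19 (limma, adjusted p = 0.931), with 0.142 ± 0.054 when the choroid plexus marker mean was a covariate, where it passed the unadjusted threshold, and 0.162 ± 0.243 when the thalamus marker mean was, where it did not. Its call was lost when ethanol pool 1 (0.249) or 3 (0.407) or saline pool 1 (0.421) or 2 (0.406) was left out, and in the methods' t-test, and it was at 0.693 without ethanol pool 2. The part of choroid plexus or thalamus in the Kcne2 difference was not tested.

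Pex5l encodes TRIP8b, the accessory subunit that controls how many HCN channels reach the dendrites and that competes with cyclic AMP. It had 9.566, 9.497 and 9.567 in ethanol pools 1, 2 and 3, against 9.531, 9.558 and 9.584 in saline pools 1, 2 and 3, and a log2 change of -0.015 ± 0.04. Vapa and Vapb, membrane proteins of the endoplasmic reticulum that bind HCN2, had changes of 0.01 ± 0.038 and -0.024 ± 0.043. The endoplasmic reticulum proteins Lrmp and Mrvi1, known to act on HCN4, had changes of -0.06 ± 0.061 and 0.11 ± 0.055, at levels below 5.37. The remaining partner genes, the actin-binding filamin Flna, the ubiquitin ligase Nedd4l and the caveolins Cav1 and Cav3, had changes from -0.009 to 0.036. Cav3 is a muscle caveolin and lay below 5.37. None of these genes passed the unadjusted threshold with all pools, but Mrvi1 did without saline pool 1 and Flna without ethanol pool 2.

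Cyclic AMP, the ligand of the channels, is made by adenylyl cyclases and broken down by phosphodiesterases. Of 26 such genes 0 passed the unadjusted threshold, against 5.22% of all genes. Pools that did not overlap were found for 0 of them, against 5.35% of all genes with ethanol pools wholly above saline pools. A list this short can hold 0 at such shares. Of the 26, 11 lay above the saline mean, and the median log2 change was -0.018. Adcy1, a calcium-stimulated cyclase of the hippocampus, had 11.124, 11.222 and 11.019 in ethanol pools, against 11.17, 11.169 and 11.155 in saline pools, a change of -0.043 ± 0.054. Pde2a, a phosphodiesterase stimulated by cyclic GMP, had 11.356, 11.439 and 11.437 in ethanol pools, against 11.456, 11.429 and 11.446 in saline pools, a change of -0.033 ± 0.041. The changes of all 26 ran from -0.106 (Adcy4) to 0.097 (Pde7b), the ends of the list being named after their values were seen. With 1 pool left out, passing genes were Pde7b without ethanol pool 3, Pde3b without saline pool 1, and Adcy6 and Adcy9 without saline pool 2.

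The cyclic nucleotide gated channels, sensory channels with the same kind of ligand-binding domain, gave no call either. All 6 genes had means above saline, by 0.004 to 0.08. The unadjusted threshold was passed by 0 of 6, against 5.22% of all genes. Pools that did not overlap were found for 0 of 6. Ethanol pools lay wholly above saline pools for 5.35% of all genes and 8.01% of genes below 5.37. A list this short can hold 0 at such shares. Cngb1, read by the brightest of its 4 probe sets, was the one gene of the list above 5.37. It had 8.406, 8.287 and 8.308 in ethanol pools against 8.463, 8.002 and 8.297 in saline pools, a change of 0.08 ± 0.102. Its SD between saline pools exceeded that of 99.5% of genes. Cnga1, a subunit of the rod photoreceptor channel, had a change of 0.033 ± 0.042. The other 4 genes had changes of 0.004 to 0.038.

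**Figure D4:**
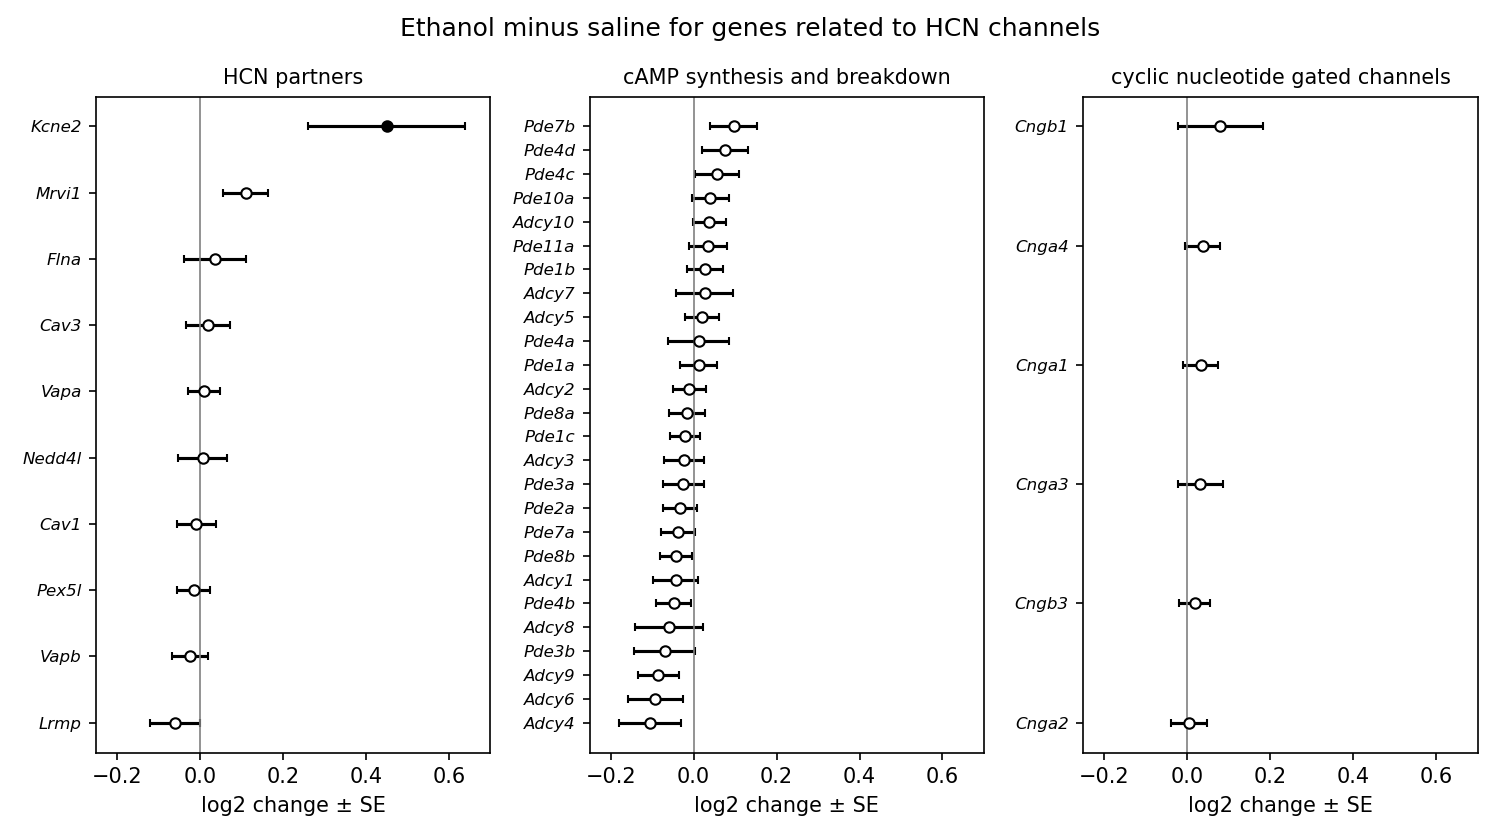
Log2 change (ethanol minus saline, ± SE, horizontal axis) of the measured genes of HCN partners, of cyclic AMP synthesis and breakdown and of cyclic nucleotide gated channels, in order of their change. The filled symbol is Kcne2, at 0.45, the one gene of the 3 lists past an unadjusted p under 0.05 in limma.

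The genes whose values over the 6 arrays were most like those of each HCN gene were found by Pearson's r, as a description. The arrays carry the group difference and any shared tissue, and with so few arrays high values are common. Values of 0.9 or more were reached by 86 genes for Hcn4 (0.431% of all genes), 142 genes for Hcn2 (0.712%) and 116 genes for Hcn3 (0.582%). For Hcn4 the most alike genes were Myct1, Zfp263 and Zfp820, with r of 0.989, 0.986 and 0.982. For Hcn2 they were C87436, P4ha2 and Rnf152, with r of 0.994, 0.992 and 0.988. For Hcn3 they were Acbd3, Ppp1r3e and Snx19, with r of 0.995, 0.995 and 0.990. Of the 16 thalamus markers, 4 reached 0.9 with Hcn4 (Prkcd, Zic1, Tcf7l2 and Synpo2, at 0.939, 0.924, 0.912 and 0.905) and 0 with Hcn2 or Hcn3. This list was chosen with earlier results of these data known, so the count is no independent evidence. Of the 15 hippocampal neuron markers, 1 reached it with Hcn4, the calmodulin-binding Pcp4 at 0.982, and 0 of the HCN partner, cyclic AMP or cyclic nucleotide gated channel genes reached it with any of the 3.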

How the data were processed

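Affymetrix Mouse Gene 1.0 ST arrays were run on 3 ethanol and 3 saline pools. The authors condensed the probes of each set with RMA, and the deposited log2 values were used unchanged. The software that ran RMA and the annotation's genome build are not given in the sources here. Of 35556 probe sets, 21789 have 1 gene symbol in the platform annotation, 1621 several and 12146 none, and tests covered the 23410 that have any. The brightest probe set of each gene was used. Hcn3 and Hcn4 have each carried the other's symbol, and their rows were matched by Entrez identifier to RefSeq, whose GRCm38.p6 gene positions are given.

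Ethanol was compared with saline in limma 3.58.1 (lmFit and eBayes, R 4.3.3), two-sided and without covariates. The methods name an ANOVA instead and do not give its factors. With group as its only factor, an ANOVA of 2 groups equals an equal-variance t-test. The median standard error of a log2 change was 0.049, and the number of arrays limits the precision. Differences between 2 HCN genes were tested with an exact permutation test over arrays. Alternatives were the equal-variance t-test, a replicate block, median centring, quantile normalization, an intensity trend, array weights and a filter at the median level. Others were all rows, probe sets averaged per gene, marker means as covariates and each array left out. The procedure was tested on simulated data. Figures were drawn with matplotlib 3.10.9.

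The HCN genes and the 9 gene lists were chosen with earlier results of these data known. Named are the HCN genes, all measured partner genes, in the cyclic AMP and cyclic nucleotide gated channel lists up to 4 genes past the threshold or else the 2 brightest, in each marker list the 4 with the largest change, and the 3 genes most alike to each HCN gene. The miRNA, DNA methylation and histone arrays were not analysed here.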

Additional observations from a re-analysis of the deposited data

How the results depend on the processing

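The adjusted p of the 3 HCN genes stayed at 0.619 or more under each alternative that kept all pools. Hcn4 kept its direction in all 10 of these that could be run, at 0.039 to 0.247, and passed the unadjusted threshold in 6. The t-test, replicate block, intensity trend, all rows and probe sets averaged per gene leave its change at 0.197. Its direction could not turn in those. The Hcn4 call was lost in the equal-variance t-test (0.197), over all rows (0.197) and with the thalamus (0.039) or choroid plexus (0.144) covariate. Hcn4 was not among the probe sets above the median level. With a pool left out it ran from 0.117 to 0.245. Hcn2 was below 0 with median centring (-0.014), array weights (-0.01) and the thalamus (-0.077) or choroid plexus (-0.038) covariate, and ran from -0.04 to 0.024 with a pool left out. Hcn3 was above 0 with the thalamus (0.007) or choroid plexus (0.03) covariate and ran from -0.08 to 0.004 with a pool left out. The change of Hcn3 minus that of Hcn2 ran from -0.104 to 0.045. The cause of these turns was not tested. The count of probe sets past the unadjusted threshold was 1202, against 494 above the median level and 1969 over all rows, where fewer and more probe sets were tested, and 834 to 1484 with a pool left out. Partner genes past it numbered 1, and 0 to 2 with a pool left out. Their number was 0 with the equal-variance t-test, array weights, above the median level, over all rows or with the thalamus covariate. Cyclic AMP genes past the threshold numbered 0, and 1 with array weights or the choroid plexus covariate. With a pool left out they numbered 0 to 2.

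With the replicate number as a block, Hcn4 was at 0.197 ± 0.066 (limma, adjusted p = 0.964), Hcn2 at 0.002 and Hcn3 at -0.026, and no call of the 3 genes changed. Deviations of same-numbered arrays from their group means correlated across genes at -0.076, -0.009 and 0.059 for numbers 1, 2 and 3. Arrays of unlike number correlated at -0.2 to 0.17. With 3 arrays a group, these values cannot tell whether the numbers pair the arrays.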
